A study of Mus musculus with 4 samples.

Results

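Regulators of small GTPases held 176 of the 10000 captured regions in a genome-wide table of methylated DNA from mouse CD4+ T cells, under 72 of its 5349 gene labels. The members are all regions whose gene label starts with Arhgap, Arhgef, Dock, Rapgef, Rasgr, Rasa, Sipa1, Tbc1d, Iqsec, Asap, Agap or Dennd. Exchange factors (Arhgef, Dock, Rapgef, Rasgr, Iqsec and Dennd) gave 75 regions in 32 genes, and activating proteins (Arhgap, Rasa, Sipa1, Asap, Agap and Tbc1d) gave 101 regions in 40 genes. The classes follow the gene symbol, and the enzymatic activity of each product was not measured.

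Spleens and lymph nodes of Balb/c females were the source of the DNA, with 1 library for each of 4 populations. Naive cells were sorted as CD45RB high. Th1 cells were CD45RB low with interferon gamma and without IL-17A, and Th17 cells were CD45RB low with IL-17A and without interferon gamma. Treg cells were sorted by very high CD25. All 4 received phorbol ester (PMA, 10 ng/ml) and ionomycin (500 ng/ml) for 3 h, before sorting in naive, Th1 and Th17 cells and after sorting in Treg cells. The labels give no age and no number of animals, and they do not say whether animals were pooled. Methylated fragments were captured with a methyl-CpG-binding domain and sequenced, so a value follows how much methylated DNA a region gave and is not a methylation level. With 1 library per population, no test between populations was possible, and the intervals given are exact 95% Poisson or conditional binomial intervals that cover counting error only.

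Small GTPases switch between a form bound to GTP, which engages effectors, and a form bound to GDP, which does not. Guanine nucleotide exchange factors load GTP, and GTPase-activating proteins speed up its hydrolysis. In T cells Rac and Cdc42 shape the actin cytoskeleton in migration and at the synapse with an antigen-presenting cell, Ras and Rap carry antigen receptor signals to kinases and integrins, and Arf and Rab proteins direct vesicle traffic.

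The table as a whole held 34277 naive, 19548 Th1 and 74571 Treg reads. The deposited value of 1 read was 0.996 in naive, 1.68 in Th1 and 0.352 in Treg. All 176 member regions had a value of 0 in Th17, as did all 10000 regions of the table. The depth of the Th17 library could not be recovered, so no ratio to Th17 is given. The population markers fixed beside the gene families held regions in 3 of 5 Th17 genes (Il17a and Ccr6 among them) and in 0 of 3 Th1, 0 of 4 Treg and 0 of 3 naive cell genes, so the sorted identities could not be checked from most of these markers.

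Members lay mostly inside genes, and 2 of the 176 were placed in a promoter. These 2 were in Rasgrf2, whose product loads both Ras and Rac and responds to calcium through calmodulin, and in Arhgap6, an activating protein. The Rasgrf2 promoter region (mm9, chromosome 13, 92901986 to 92902238) had 4 reads in naive, 2 in Th1 and 10 in Treg. The Arhgap6 promoter region (mm9, chromosome X, 165232193 to 165232444) had 3, 1 and 6 reads in the same order. Relative to a reference point that the file does not define, the middle of the Rasgrf2 region had a difference of -501 bp and that of the Arhgap6 region -713 bp. The promoter sequence of Rasgrf2 is shown because it is the start region nearest to a captured promoter fragment with a single RefSeq window, and its capitals mark every CG dinucleotide, the substrate of DNA methylation (RefSeq, GRCm38.p6, minus strand, chr13:92131779-92132078, 250 bases before to 50 after the start, 5′ to 3′).
Rasgrf2: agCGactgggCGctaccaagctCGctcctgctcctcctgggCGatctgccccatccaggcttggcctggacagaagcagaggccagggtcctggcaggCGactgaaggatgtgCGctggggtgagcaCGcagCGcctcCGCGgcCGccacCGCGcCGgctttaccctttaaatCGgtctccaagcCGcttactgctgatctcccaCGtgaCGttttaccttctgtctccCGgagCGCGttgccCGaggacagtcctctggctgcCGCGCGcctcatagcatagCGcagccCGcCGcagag
This window of 300 bases holds 28 CG dinucleotides, and 14.2% of all promoter windows in the same RefSeq table hold at least as many. If the undefined reference point is the start, the captured Rasgrf2 fragment lay 374.5 to 627.5 bp from it, outside the window that is printed. The window is in another genome build than the deposited coordinates, and no coordinates were converted. RefSeq lists 3 windows for Arhgap6, and the deposited label does not say which of them it refers to.

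RefSeq (GRCm38.p6) lists 149 protein-coding symbols with these 12 prefixes, and 72 of them (48.3%) stand as labels in the table, beside 4387 of 21900 symbols (20.03%) over all genes. A further 7 labels are older names of genes in these families and are outside the rule. They held 17 regions, 10 of them under Rgnef (Arhgef28), with 36 naive, 15 Th1 and 81 Treg reads. With older names counted, 79 of 149 symbols (53.0%) had a region, beside 4839 of 21900 (22.1%), and the classes were covered to a like extent, at 37 of 68 exchange factors (54.4%) and 42 of 81 activating proteins (51.9%). By family, with older names counted, coverage was highest for Iqsec, exchange factors for Arf, with 3 of 3, and for Dock, whose members load Rac or Cdc42 through a DHR domain, with 10 of 11 (Dock5 had no region). Sipa1, the Rap activating proteins, had 3 of 4, Asap 2 of 3, Arhgap 21 of 34 and Rapgef, which load Rap, 4 of 7. Arhgef, the Dbl-type exchange factors, had 12 of 25, and 8 of 25 under current symbols alone. Tbc1d, the Rab activating proteins, had 13 of 30, and Dennd, exchange factors for Rab, 6 of 16. Rasgr had 2 of 6, Agap 1 of 3 and Rasa, activating proteins for Ras, 2 of 7. These shares were not corrected for the length of the genes.

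Member genes held 2.44 regions each, beside 1.87 over all labels. A single region was found in 33 of 72 genes (45.8%, 63.6% over all labels), at least 3 regions in 23 genes (31.9%, 17.5%) and at least 5 in 10 genes (13.9%, 6.38%). The 23 genes with at least 3 regions together held 111 of the 176 regions. The most regions were found in Agap1 (9), an Arf activating protein. It was followed by Arhgap15 (8), a Rac activating protein of blood cells, and Arhgap26 (8), also known as GRAF1. Tbc1d22a had 7, and Asap1, an Arf activating protein linked to focal adhesions, had 6. Among exchange factors Dock4 had the most, with 6, and Rapgef4 (Epac2, a Rap exchange factor opened by cyclic AMP) and Rasgrf2 were among those with 5.

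**Figure D1:**
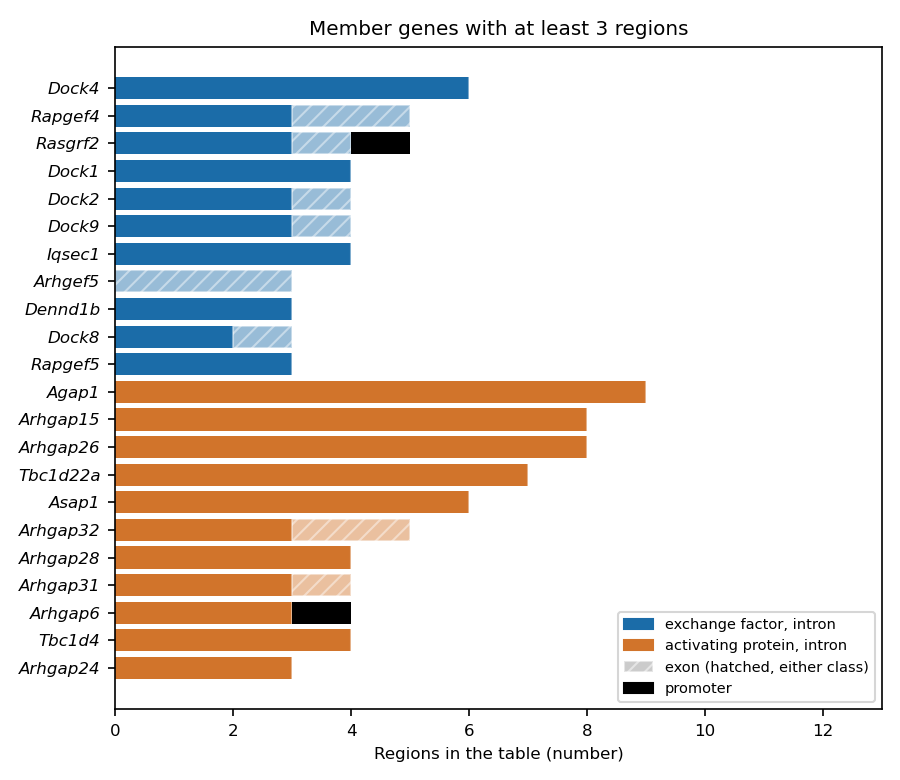
Number of captured regions in 22 of the 23 member genes with at least 3 regions, exchange factors in blue above and activating proteins in orange below. Solid bars count intron regions, hatched bars exon regions and black bars promoter regions. Agap1 has 9 regions, all in introns, and all 3 Arhgef5 regions are in exons.

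Regions of 1 gene were spread over long stretches. Of the 39 genes with more than 1 region, 17 spanned over 100 kb from the first to the last, up to 513.77 kb in Arhgap26 and 880.67 kb in Rasgrf2. The median gap between neighbours was 29.0 kb in members and 29.0 kb over the table. Gaps under 10 kb made up 18 of 104 (17.3%) in members and 22.5% over the table. The closest pairs were 79 bp apart in Tbc1d4, a Rab activating protein phosphorylated by Akt, and 452 bp apart in Rapgef4. In Rasgrf2, 3 regions and 2 regions were separated by 787 kb, and whether all 5 lie in the gene was not examined.

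Introns held 144 of the 176 member regions (81.8%, exact binomial 95% interval 75.3 to 87.2), exons 30 (17.0%, 11.8 to 23.4) and promoters 2 (1.14%, 0.14 to 4.04). Over the table these shares were 78.7%, 16.6% and 4.77%. The classes of members differed more from each other than members did from the table: exons held 20 of 75 exchange factor regions (26.7%, 17.1 to 38.1) and 10 of 101 activating protein regions (9.90%, 4.85 to 17.5). Regions of 1 gene are not independent, and these shares were not tested. In Arhgef5 all 3 regions were exonic, in exons 2, 7 and 13, with 4, 3 and 3 naive, 2, 1 and 4 Th1 and 9, 6 and 11 Treg reads.

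Exonic members carried higher exon numbers than exonic regions of the table. Their median exon number was 14 (range 2 to 42), beside 6 for the 1658 exonic regions of the table. Exon 10 or later held 21 of 30 (70%), beside 33.3% of the table, and exon 1 held 0 of 30. How many exons each gene has was not taken into account. Among the Dock genes exons 2 of Dock2, 2 of Dock3, 3 of Dock6, 7 of Dock9, 17 of Dock10 and 42 of Dock8 held a region. Other exchange factors had theirs in Arhgef17 (exon 21), Rapgef3 (6), Rapgef4 (16 and 24), Rapgef6 (26), Rasgrf2 (15), Rasgrp3 (13) and Dennd4c (20). Activating proteins had theirs in Arhgap4 (18), Arhgap21 (23), Arhgap29 (12), Arhgap31 (12), Arhgap32 (12 and 22), Arhgap40 (5), Asap2 (28), Tbc1d7 (3) and Tbc1d19 (18). Tbc1d7 is known as a subunit of the TSC complex, the brake on mTORC1.

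Member regions were read as often as the table at large. The median region held 3 naive, 2 Th1 and 7 Treg reads, the same 3 medians as over the table, and 151 of 176 (85.8%, 85.9% of all regions) held reads in all 3 libraries. A count of 0 was found in 1 member in naive, in 24 in Th1 (13.6%, 12.3% of all regions) and in 0 in Treg. The mean deposited value per member region was 3.36 for naive cells (3.10 to 3.64, 594 reads), 3.37 for Th1 (3.03 to 3.74, 353 reads) and 2.53 for Treg (2.39 to 2.67, 1264 reads). The table means were 3.41, 3.29 and 2.63. Member regions had a median length of 240 bp (156 to 490), and regions of the table one of 249 bp.

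Exchange factors and activating proteins differed by less than the counting error. The mean value per exchange factor region was 3.20 in naive, 3.29 in Th1 and 2.45 in Treg, from 241, 147 and 522 reads. For activating proteins it was 3.48, 3.43 and 2.59, from 353, 206 and 742 reads. The ratio of exchange factors to activating proteins was 0.919 for naive cells (0.777 to 1.09), 0.961 for Th1 (0.772 to 1.19) and 0.947 for Treg (0.845 to 1.06), and each interval includes 1. Exchange factor regions were shorter, and per kb of region the 2 classes gave mean values of 13.5 and 13.4 in the naive library, 13.9 and 13.2 in that of Th1 cells, and 10.3 and 10.00 in that of Treg cells.

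**Figure D2:**
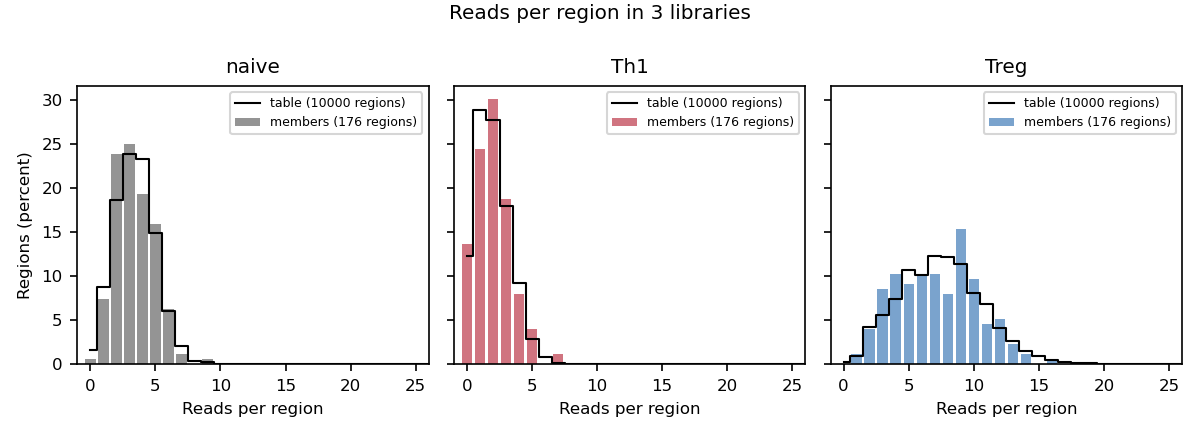
Percent of regions (vertical axis) by number of reads per region (horizontal axis) in the naive, Th1 and Treg libraries. Bars are the 176 member regions and the black line is the whole table of 10000 regions. The members' bars follow the table's line, with medians of 3, 2 and 7 reads.

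The regions with the most reads show the scale of single values. The highest Treg value among members and, tied with an Asap1 intron, the highest Th1 value were in an Arhgap22 intron (chromosome 14, 34171651 to 34172044), where naive gave 6, Th1 7 and Treg 16 reads. In other families the region with the most reads held 3, 4 and 11 reads (naive, Th1 and Treg) in Arhgef5, 3, 3 and 11 in Rapgef4, and 3, 4 and 10 in Rasgrp3, an exchange factor recruited by diacylglycerol. It held 4, 2 and 11 in Iqsec3, 2, 4 and 10 in Dennd1b, 3, 2 and 9 in Rasal2 and 5, 1 and 14 in Sipa1l3. In the families that act on Arf and Rab as activating proteins it held 1, 5 and 10 in Asap1, 5, 1 and 13 in Agap1 and 4, 0 and 14 in Tbc1d9b. An Arhgap18 intron (2, 5 and 13 reads) came next by Th1 value, tied with other regions at 5 Th1 reads. Even these regions rest on few reads: the Th1 value of the Arhgap22 region, 11.8, has an interval of 4.73 to 24.2.

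For each pair of populations a region was counted as higher or lower when the log2 ratio of its deposited values, with 0.5 added to each, was at least 1 in size. The 3 pairs share libraries and are not independent. In Th1 against naive, 37 members were higher (21.0%, 19.4% of all regions) and 43 lower (24.4%, 29% of all regions). Exchange factors split 17 higher and 16 lower, and activating proteins 20 and 27. Of the 43 lower regions, 24 held 0 Th1 reads. A count of 0 allows up to 3 reads, which is a Th1 value of 5.04, and against that limit 0 of the 24 were 2-fold lower. Among the 151 members read in both libraries, 36 were higher (23.8%, 20.6% of all regions read in both) and 19 lower (12.6%, 19.4% of all regions read in both). The median log2 ratio of all members was -0.19 with zeros as deposited and 0.17 with zeros set to 3 reads, so its sign depends on how zeros are treated. With the libraries set to equal totals over the table, 38 members were higher (19.6% of all regions) and 37 lower (21.3%).

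The largest differences toward Th1 were in introns of Rapgef4 and Asap1. The Rapgef4 region (chromosome 2, 72031031 to 72031266) had 0 reads in naive, 5 in Th1 and 3 in Treg. Its Th1 value was 2.81 times the naive value of 3 reads, the limit that 0 allows. That multiple leaves out the counting error of the Th1 reads. The intervals, 2.73 to 19.6 in Th1 and 0 to 3.67 in naive, overlap. The Asap1 region (chromosome 15, 63940419 to 63940652) held 1, 5 and 10 reads. Next came exon 18 of Arhgap4, an activating protein of blood cells (chromosome X, 71142085 to 71142494; 1, 4 and 13 reads), and introns of Tbc1d12 (1, 4 and 7) and Dock2 (1, 4 and 6). Dock2 encodes the Rac exchange factor of lymphocytes that chemokine-driven migration requires.

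Toward naive the first 5 regions all held 0 Th1 reads. The Arhgap24 intron (chromosome 5, 103005769 to 103005996) had 9 reads in naive, 0 in Th1 and 3 in Treg, the highest naive count among members, and its naive value was at least 1.78-fold higher than Th1. Arhgap24 encodes FilGAP, a Rac activating protein that binds filamin. A Tbc1d22a intron held 7, 0 and 10 reads, with a bound of at least 1.38-fold. Introns of Asap1 (6, 0 and 8), Arhgap22 (6, 0 and 5) and Arhgap31 (6, 0 and 2) had bounds of at least 1.19-fold. Asap1 thus held regions among the first 5 in both directions.

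In Treg against naive, 9 members were higher (5.11%, 8.33% of all regions) and 41 lower (23.3%, 22.2% of all regions), with 4 and 17 among exchange factors and 5 and 24 among activating proteins. This split depends on the scaling of the libraries. With equal totals, 25 members were higher (15.2% of all regions) and 23 lower (12.3% of all regions). The same change moved the median log2 ratio of the table from -0.29 to 0.04, so the members' split moved together with that of all regions. Higher in Treg were the Arhgap4 exon (1 naive, 4 Th1 and 13 Treg reads), introns of Arhgap32 (1, 3 and 13) and Sipa1l1 (1, 2 and 12), and the Rapgef4 and Asap1 regions named above, of which the Rapgef4 one is within the 3 reads that 0 naive reads allow. Lower in Treg were an Arhgap26 intron (chromosome 18, 39128678 to 39128876; 7, 1 and 1 reads), the Arhgap24 and Arhgap31 introns named above, and introns of Tbc1d5 (5, 2 and 2), which acts on Rab7, and Arhgap15 (6, 3 and 3). The Arhgap26 region had a log2 ratio of -3.13.

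In Treg against Th1, 29 members were higher (16.5%, 17% of all regions) and 38 lower (21.6%, 21% of all regions), with 12 and 14 among exchange factors and 17 and 24 among activating proteins. With equal table totals the counts were 42 higher (22.6% of all regions) and 31 lower (15.2% of all regions), and the table's median moved from -0.22 to 0.06. Of the 29 higher regions, 24 held 0 Th1 reads, the same 24 as above, and in none of these was the Treg value above what 0 Th1 reads allow. Among the 152 members read in both libraries, 5 were higher (3.29%, 5.61% of all regions read in both) and 38 lower (25%, 23.7% of all regions read in both). Introns of Tbc1d9b (4 naive, 0 Th1 and 14 Treg reads), Agap1 (3, 0 and 12), Tbc1d22a (7, 0 and 10), Arhgef16 (5, 0 and 9) and Arhgef7 (5, 0 and 9) led the regions higher in Treg. Introns of Asap1 led those lower in Treg, with 2, 4 and 1 reads (chromosome 15, 63924082 to 63924368) and 3, 7 and 4 reads (chromosome 15, 64165822 to 64166130). They were followed by introns of Arhgef6 (3, 5 and 3), Arhgap15 (2, 5 and 3) and the Rapgef4 region named above. Arhgef6 and Arhgef7 encode the PIX exchange factors, which bind Pak kinases.

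**Figure D3:**
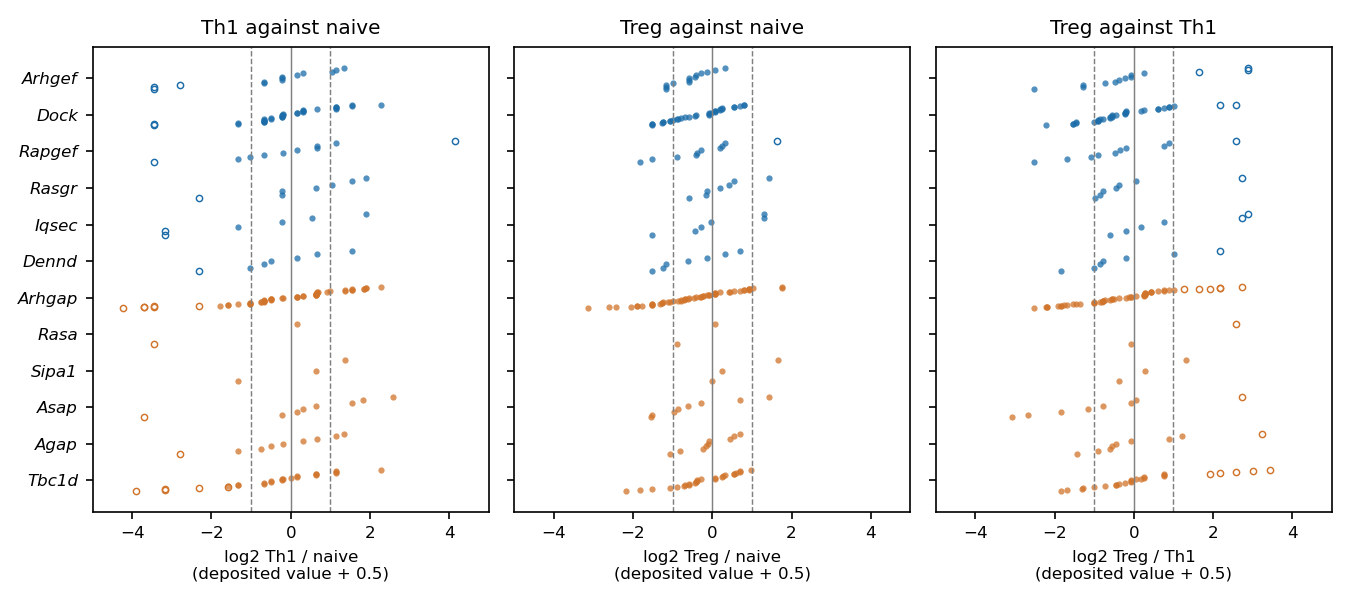
Log2 ratios of deposited values plus 0.5 for every member region, by gene family, in the 3 pairs of populations, with exchange factors in blue and activating proteins in orange. Open circles are regions with 0 reads in 1 of the 2 libraries, whose ratio is set by the added 0.5, and dashed lines mark a log2 ratio of 1 in size. In Treg against Th1, 24 of the 29 points above 1 and none of the 38 below -1 are open circles.

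No member region was called between 2 libraries by an exact 2-sided binomial test of reads with Benjamini-Hochberg adjustment over all 10000 regions, which compares libraries and not cell types. The test called 0 members in each pair, and of all regions 0 in Th1 against naive (0%), 1 in Treg against naive (0.01%) and 0 in Treg against Th1 (0%). At an unadjusted exact p under 0.05 there were 4 members in Th1 against naive (2.27%, 1.53% of all regions), 12 in Treg against naive (6.82%, 8.40% of all regions) and 11 in Treg against Th1 (6.25%, 5.01% of all regions). The smallest adjusted p among members by this exact test was 1 in Th1 against naive, 0.223 in Treg against naive, for the Arhgap26 intron, and 0.656 in Treg against Th1, for an Asap1 intron. With equal table totals the exact test also called 0 members, with 4 (1.99% of all regions), 5 (2.84%, 4.76% of all regions) and 7 (3.98%, 2.84% of all regions) at an unadjusted p under 0.05 in the same order of pairs.

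Summing reads over the regions of a gene, a step added after the regions had been examined, gave larger counts. Of the 23 genes with at least 3 regions, the mean value was past a log2 ratio of 1 in 1 gene in Th1 against naive (0 higher and 1 lower; 3.32% and 7.07% of the 934 such genes in the table). In Treg against naive 0 were higher and 2 lower (0.321% and 7.39%), and in Treg against Th1 1 was higher and 3 lower (2.14% and 6.64%). The genes were Iqsec1, Arhgap24, Rapgef5, Asap1 and Arhgap15, and Rapgef5 lay at the limit, with a log2 ratio of -1.02 in Treg against Th1. With equal table totals the Arhgap15 and Rapgef5 calls were lost and Arhgap31 (12, 3 and 33 reads) was higher in Treg than in Th1, with a log2 ratio of 1.22.

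Asap1 had more Th1 reads relative to Treg than any other of these genes. Its 6 introns held 2, 1, 4, 3, 6 and 3 naive, 4, 5, 3, 7, 0 and 2 Th1 and 1, 10, 3, 4, 8 and 5 Treg reads, in order along chromosome 15. In sum these are 19 naive, 21 Th1 and 31 Treg reads, or mean values of 3.15 (1.90 to 4.93), 5.88 (3.64 to 8.99) and 1.82 (1.24 to 2.58). The log2 ratio of the sums was 0.90 in Th1 against naive (-0.07 to 1.87) and -1.69 in Treg against Th1 (-2.54 to -0.82). The single regions did not all lie on 1 side: the fifth held 0 Th1 and 8 Treg reads.

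Iqsec1, which encodes an exchange factor for Arf6, had the fewest Th1 reads per region among the genes with at least 3 regions. Its 4 introns, within 24.15 kb, held 4, 4, 1 and 5 naive, 0, 0, 1 and 1 Th1 and 8, 9, 9 and 4 Treg reads. Sums of 14, 2 and 30 reads gave mean values of 3.49 (1.91 to 5.85), 0.84 (0.10 to 3.04) and 2.64 (1.78 to 3.77). The log2 ratio was -2.05 in Th1 against naive, with an interval of -5.23 to 0.07 that includes 0.

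Arhgap15 and Arhgap24 had low Treg values. The 8 introns of Arhgap15 held 1 to 6 naive, 1 to 5 Th1 and 2 to 9 Treg reads, with sums of 28, 21 and 39 and mean values of 3.49 (2.32 to 5.04), 4.41 (2.73 to 6.74) and 1.72 (1.22 to 2.35). The log2 ratio of its sums, without the added 0.5, was -1.02 in Treg against naive (-1.76 to -0.27) and -1.36 in Treg against Th1 (-2.16 to -0.52). With 0.5 added to the means the ratio in Treg against naive was -0.85, short of the size rule. The interval in Treg against naive includes the ratio of the whole table, -0.38. The 3 introns of Arhgap24 held 9, 6 and 1 naive, 0, 2 and 3 Th1 and 3, 7 and 3 Treg reads, and the log2 ratio of the sums (16, 5 and 13) was -1.80 in Treg against naive (-2.97 to -0.65). Its first intron region accounts for 9 of the 16 naive reads. In an exact 2-sided binomial test of the summed reads with Benjamini-Hochberg adjustment over all 5349 labels, 0 member genes were called in each pair, beside 0, 1 and 0 of all labels. The smallest adjusted p by this exact test was 0.171 for Arhgap24 in Treg against naive and 0.253 for Asap1 in Treg against Th1, and 0.774 and 1 with equal table totals. At an unadjusted exact p under 0.05 there were 1 (1.39%, 2.51% of all labels), 5 (6.94%, 9.95%) and 6 (8.33%, 6.41%) of 72 member genes in Th1 against naive, Treg against naive and Treg against Th1, and with equal table totals 1 (2.95% of all labels), 2 (4.94%) and 6 (3.40%).

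Most other genes with many regions had intervals that include 0 in every pair. The exceptions among those with at least 4 regions, both in Treg against naive, were Dock4 (23, 10 and 35 reads, log2 interval -1.69 to -0.07) and Arhgap28 (17, 10 and 24 reads, -1.96 to -0.01). Both intervals include the ratio of the whole table in that pair, -0.38. With equal table totals the log2 ratio of mean values moved from -0.76 to -0.44 in Dock4 and from -0.86 to -0.54 in Arhgap28. Agap1 held 33 naive, 20 Th1 and 84 Treg reads over 9 regions, with mean values of 3.65, 3.74 and 3.29 and log2 ratios of 0.03 in Th1 against naive (-0.85 to 0.88) and -0.15 in Treg against naive (-0.75 to 0.48). Rasgrf2 (13, 9 and 40 reads) was like it in this. Dock2 held 10, 12 and 27 reads over 4 regions, with 1, 4 and 6 in its intron named above. Its mean Th1 value was 5.04 (2.61 to 8.81). The log2 ratio of the sums to naive, without the added 0.5, was 1.02, with an interval of -0.32 to 2.39. With 0.5 added to the means it was 0.89, short of the size rule.

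**Figure D4:**
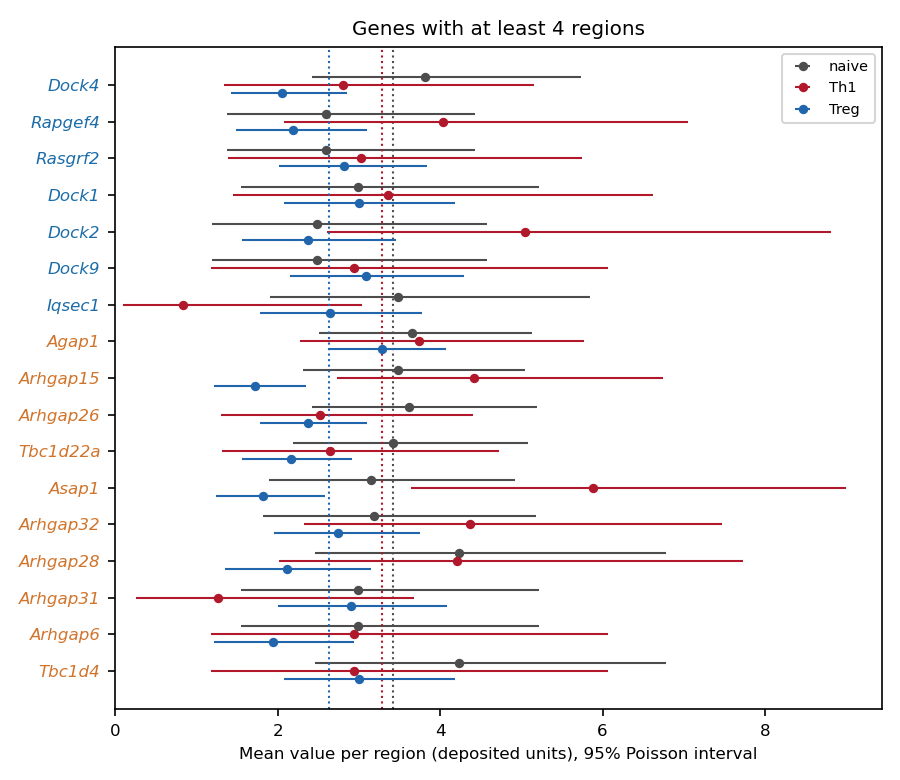
Mean deposited value per region in 17 of the 18 member genes with at least 4 regions, with exact 95% Poisson intervals that cover counting error only. Grey points are naive, red Th1 and blue Treg, and dotted lines are the means over the table. The Asap1 and Arhgap15 intervals for Treg lie below those for Th1, and the other drawn genes' Th1 and Treg intervals overlap.

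The log2 ratio of summed values over all members was 0.00 in Th1 against naive (-0.19 to 0.20, table -0.06), -0.41 in Treg against naive (-0.55 to -0.27, table -0.38) and -0.41 in Treg against Th1 (-0.58 to -0.24, table -0.32). By target, regulators of Ras and Rap held 22 regions in 11 genes, of Arf 23 in 6 and of Rab 32 in 17. Among families with at least 6 regions, Asap had the lowest ratio in Treg against Th1, at -1.25 (-1.97 to -0.50), and 6 of its 8 regions are those of Asap1. The Iqsec family was the one with a positive ratio in that pair among families with at least 6 regions, at 0.58 with an interval of -0.57 to 1.97, and 4 of its 6 regions are those of Iqsec1.

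**Figure D5:**
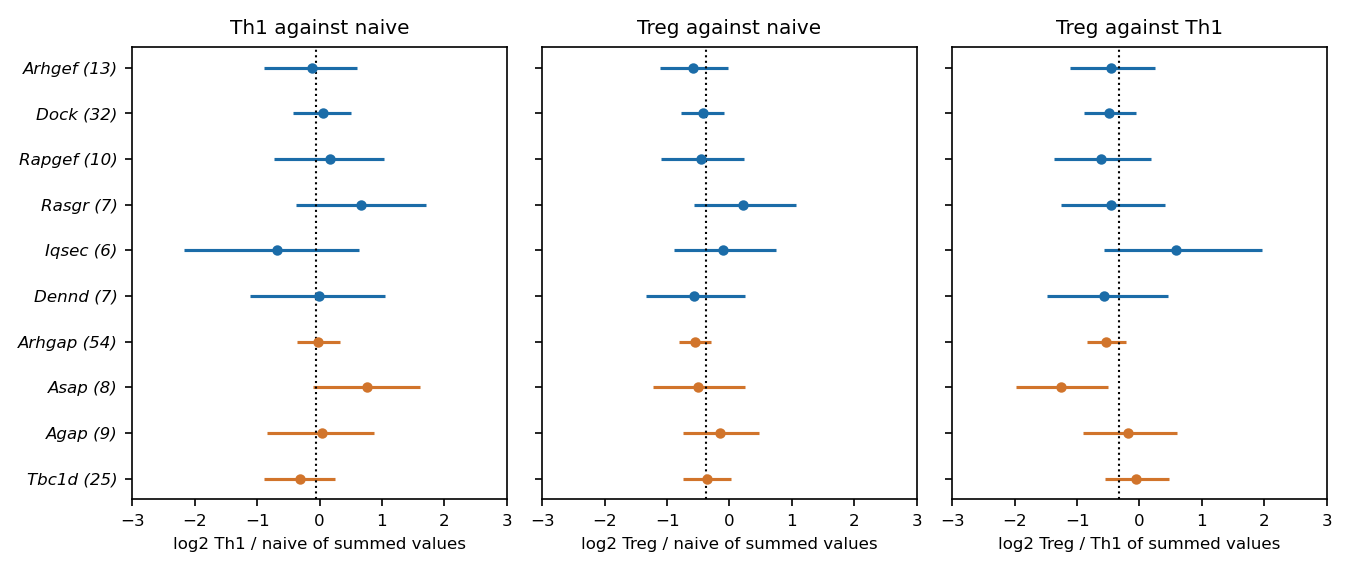
Log2 ratios of summed values for the 10 families with at least 6 regions (number of regions in brackets), with 95% intervals for counting error, exchange factors in blue and activating proteins in orange. Dotted lines are the same ratios over the whole table. The Asap interval in Treg against Th1, -1.97 to -0.50, is the one that does not include the table's ratio. The intervals are not adjusted for the number of families and pairs drawn.

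Among 29 regulators known from T cells, a list drawn up with earlier results of these data known, 13 genes had 33 regions, with 108 naive, 69 Th1 and 222 Treg reads. Arhgap15, Dock2, Iqsec1 and Arhgef7 are described above. Dock8, an exchange factor for Cdc42 whose loss in people causes an immunodeficiency, held 11, 3 and 15 reads over 3 regions, and its relatives Dock10 (6, 5 and 18) and Dock11 (4, 2 and 5) held 2 and 1 regions. Rasgrp3 held 5, 8 and 19 reads over 2 regions and Dennd1b 10, 7 and 25 over 3. Arhgef6 (3, 5 and 3), Rapgef6 (3, 1 and 10), Rasa3 (5, 0 and 7) and Sipa1l1 (1, 2 and 12) held 1 region each. By the size rule 11 of the 33 regions were higher (33.3%, 19.4% of all regions) and 8 lower (24.2%, 29% of all regions) in Th1 against naive. In Treg against naive 2 were higher (6.06%, 8.33% of all regions) and 8 lower (24.2%, 22.2%), and in Treg against Th1 6 (18.2%, 17%) and 8 (24.2%, 21%). With equal table totals the Treg counts against naive were 5 (15.2%, 15.2% of all regions) and 6 (18.2%, 12.3%). Against Th1 they were 8 (24.2%, 22.6% of all regions) and 7 (21.2%, 15.2%). No region was listed for Rasgrp1, the main Ras exchange factor of T cells, or for Rasgrp2, Rasgrp4, Rasa1, Rasa2, Rasal3, Arhgef1, Arhgef2, Arhgef11, Arhgef12, Arhgap19, Arhgap45, Rapgef1, Rapgef2, Sipa1 and Tbc1d10c. The table holds 10000 selected regions, so a gene without one was not measured as unmethylated.

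Other genes of these pathways were covered unevenly. Exchange factors outside the 12 prefixes, such as the Vav, Sos and Tiam genes, had a region in 33 of 56 genes (92 regions, 14 of them under Kalrn), and other activating proteins in 21 of 48 (43 regions). The small GTPases had a region in 10 of 62 genes (16.1%, 11 regions), and effectors and dissociation inhibitors in 16 of 41 (31 regions). By the size rule the other exchange factors had 14 regions higher (15.2%, 19.4% of all regions) and 26 lower (28.3%, 29%) in Th1 against naive, 10 (10.9%, 8.33%) and 15 (16.3%, 22.2%) in Treg against naive and 16 (17.4%, 17%) and 19 (20.7%, 21%) in Treg against Th1. To be read against the same shares of all regions, the other activating proteins had 6 and 13 of 43, 5 and 13, and 9 and 6 in these pairs, and the effectors and inhibitors 4 and 7 of 31, 2 and 8, and 3 and 7. With equal table totals the other exchange factors had 12 and 11 in Treg against naive and 18 and 11 in Treg against Th1. Their balance thus turned, like that of all regions (15.2% and 12.3%, then 22.6% and 15.2%). The other activating proteins had 6 and 7, then 10 and 5, and kept their balance. The effectors and inhibitors had 3 and 5, then 6 and 6. The 11 regions of the small GTPases held 34 naive, 29 Th1 and 65 Treg reads, with 3 higher and 1 lower, 1 and 2, and 0 and 5, counts too small to set against those shares.

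The X chromosome held 11 member regions (6.25%), beside 2.00% of the table. They lay in 7 genes, among them Arhgap6 with 4 regions and Arhgap4, Arhgef6, Dock11, Iqsec2 and Tbc1d8b with 1 each. All 11 were read in the 3 libraries, with 1 to 4 naive, 1 to 5 Th1 and 2 to 13 Treg reads. Their sums of 33, 28 and 74 reads gave mean values of 2.99 (2.06 to 4.20), 4.28 (2.84 to 6.18) and 2.37 (1.86 to 2.98), and the other 165 members had 3.39, 3.31 and 2.54. The log2 ratio of Th1 to naive on X was 0.52, with an interval of -0.26 to 1.29.

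Length moved with reads in opposite directions in these libraries. Across the 176 members Spearman's rank correlation between region length and reads was -0.25 in naive, 0.07 in Th1 and 0.33 in Treg, and over the table -0.18, 0.23 and 0.27. These values are across regions of the same libraries, which are not independent, and the part of region length in the ratios between libraries was not tested.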

How the data were processed

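Genomic DNA of 4 sorted CD4+ T cell populations was enriched for methylated fragments and sequenced, 1 library each. The submitters' processing notes name FastQC, Bowtie 0.12.7 and the mm9 build. The deposited table gives 1 signal per library for each of 10000 regions, with a gene label, a location and mm9 coordinates; the calling and choice of regions and the scaling of the signal are not described in the labels or the file. The other column used, the middle difference in bp, is as deposited. Signals of the naive, Th1 and Treg libraries are whole multiples of a constant for each library (100% within a relative tolerance of 1e-06), and reads were recovered by division. All Th17 values are 0. Whether animals or cultures were separate is not given.

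With Python 3.11.15, pandas 2.3.3, SciPy 1.17.1 and matplotlib 3.10.9, members were found by label prefix, and reads were summed per region, gene, family and class. A pseudocount of 0.5 was added to values in ratios of single regions and of gene means; ratios of summed reads have none. Alternatives were a log2 threshold of 1.5, a 1.5-fold threshold, a pseudocount of 5, at least 10 reads, merging of regions within 300 bp, other scalings, an exact binomial test with adjusted p of at most 0.05, and leaving out the gene with the most regions. Alternatives chosen after seeing the data were sums per gene and the inclusion of older labels, and equal table totals for the gene lists. The exact test was checked on simulated reads. RefSeq tables (GRCm38.p6) gave names and the promoter sequence, and no genome was used here.

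Members and gene lists were chosen with earlier results of these data known. Named are the 8 genes with the most regions, all promoter and exon regions by gene, the region with the most reads in each family, the 5 regions with the largest ratio in each direction of each pair, the 3 highest values per library and 29 T cell regulators; some items that this rule names are not reported here. Other genes are named after their values were seen.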

Additional observations from a re-analysis of the deposited data

How the results depend on the processing

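Of 64 alternative settings, 48 left the value within its limits, 11 moved a count of member regions past the size rule by more than 1.5 times, and 5 turned the balance of higher and lower regions. The 37 alternatives of location shares, regions per gene, median reads and the ratio of the classes moved none of them. Equal table totals could not move the ratio of the classes, because both classes of a library are scaled by the same factor. Merging of regions within 300 bp joined almost none, with 175 member regions left, so it could change little. These alternatives are counted among the 48 and say little or nothing about how stable the values are. The 80 regions in Th1 against naive became 48 at a log2 threshold of 1.5, 123 at 1.5-fold, 8 with a pseudocount of 5 and 0 by the exact binomial test with adjusted p. The 50 in Treg against naive became 27, 96, 2 and 0 under the same settings. The 67 in Treg against Th1 became 110 at 1.5-fold, 5 with a pseudocount of 5 and 0 by the exact test. A higher threshold or a larger pseudocount can only lower such a count, and a lower threshold can only raise it. The balance turned with equal table totals in Th1 against naive (75 regions, 38 higher and 37 lower), Treg against naive (48, 25 and 23) and Treg against Th1 (73, 42 and 31). In Treg against Th1 it also turned with median-of-ratios scaling (70, 42 and 28) and at a log2 threshold of 1.5 (45, 23 and 22). With median-of-ratios scaling, Treg against naive gave 18 higher (10.2%, 13.4% of all regions) and 24 lower (13.6%, 13.1% of all regions). In Treg against Th1 that scaling gave 22.7% of all regions higher and 12.2% lower, so the balance of the whole table turned as well. Shares of all regions were not computed at the other thresholds or with the larger pseudocount. A filter of at least 10 reads kept 147 member regions. Leaving out Agap1 among activating proteins and Dock4 among exchange factors together did not move the ratio of the classes beyond its interval. No paired analysis was possible because each population has 1 library. With a median of 2 Th1 reads a region, the Th1 library sets the depth limit.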
